A study of Mus musculus with 24 samples.

Results

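The 37 genes described here encode proteins that carry a cell through G2 and mitosis, from the cyclins that start it to the ring that divides the cell. They were chosen by symbol (Mki67, Top2a, Ccna2, Ccnb1, Ccnb2, Bub1, Bub1b, Plk1, Aurka, Aurkb, Cdc20, Kif11, Kif23, Kif2c, Kif4, Cenpa, Cenpe, Cenpf, Tpx2, Ttk, Nuf2, Ndc80, Birc5, Prc1, Anln, Ect2, Cdca3, Cdca8, Hmmr, Nusap1, Ube2c, Racgap1, Incenp, Mad2l1, Foxm1, Espl1 and Kif18b) and matched to the Ensembl identifiers of the count tables. All 37 were found among 31062 features, and all 37 passed the filter on low counts, with at least 557 counts in every library.

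In a dividing cell these genes are low in G1 and are switched on together in G2. The MuvB core, which joins the DREAM repressor in resting cells and B-MYB and FOXM1 in cycling cells, binds a short element called CHR in their promoters, often next to CCAAT boxes bound by NF-Y. During and after mitosis the anaphase-promoting complex (APC/C) removes many of the proteins. The transcript levels of the set are widely used as a measure of how actively a population of cells divides.

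Poly-A RNA was sequenced from mouse ovarian cancer cells, the ID8 p53-/- line, in 8 groups of 3 libraries each. The cells were an Ifngr1-KO line, edited in the gene for a chain of the IFN-gamma receptor, or a control line that carried a non-targeting guide (sgNTC), and both lines lack p53. Each line was kept on ultra-low attachment plates (ULA), where cells cannot spread on the plastic, or on adherent plates, at 300000 cells per well. IFN-gamma at 100 ng/ml or PBS was added 24 hours after seeding, and cells were collected 24 hours later, after 48 hours in culture. The groups were therefore Ifngr1-KO cells in ULA with IFN-gamma or with PBS, Ifngr1-KO cells on adherent plates with IFN-gamma or with PBS, and the same 4 for sgNTC. Removal of dead cells was done for ULA wells alone, and each genotype is a single line, so that an effect of the knockout and any other difference between the lines cannot be told apart. The labels call the 3 libraries of a group biological replicates without saying what separates them, so p-values measure the spread between these libraries.

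The libraries held 33494774 to 63154942 counts. Ifngr1 itself was lower in the Ifngr1-KO libraries but not absent, at 14.7 ± 0.715 CPM (counts scaled to a common library size) in Ifngr1-KO and 35.6 ± 3.39 CPM in sgNTC cells in ULA with PBS (SD, n = 3 each), and at 15.6 ± 0.977 and 43.2 ± 1.98 CPM on adherent plates. Of the epithelial and mesothelial markers, Krt8, Krt18, Krt19, Wt1 and Msln were abundant in every group, whereas Epcam had no count and Krt7, Cdh1 and Pax8 reached at most 1.02 CPM in any library. The 10 markers of this list, 1 of them at 0 counts in each PBS group, summed to 4109 to 4266 CPM in ULA and 1727 to 2027 CPM on adherent plates for the Ifngr1-KO line with PBS, and to 2761 to 2818 and 2014 to 2177 CPM for the sgNTC line. In no library did the summed markers exceed 0.644 CPM for lymphocytes or 1.44 CPM for erythroid cells. The 5 endothelial markers, with 1 to 3 at 0 counts, summed to 1.32 to 2.37 CPM in ULA and 0.470 to 0.745 CPM on adherent plates for the Ifngr1-KO line with PBS, and to 2.83 to 3.65 and 0.484 to 0.873 CPM for the sgNTC line. Macrophage markers summed to 25.0 to 28.7 CPM in ULA and 14.7 to 16.4 CPM on adherent plates for the Ifngr1-KO line with PBS, and to 15.1 to 16.4 and 13.9 to 14.9 CPM for the sgNTC line, with 2 to 4 of the 7 markers at 0 counts in these groups. Fibroblast and pericyte markers summed to 98.8 to 102.6 CPM in ULA and 33.3 to 41.3 CPM on adherent plates for the Ifngr1-KO line with PBS. For the sgNTC line with PBS they summed to 117.3 to 122.7 and 92.0 to 105.6 CPM, with 2 to 4 of the 7 markers at 0 in these groups. The share of mitochondrial counts was 3.31% to 3.87% in ULA and 1.96% to 2.45% on adherent plates for the Ifngr1-KO line, and 5.09% to 6.12% in ULA and 2.49% to 2.94% on adherent plates for the sgNTC line. This share and the epithelial and mesothelial, endothelial, macrophage and fibroblast markers moved with culture or line, as do the results that follow, and their part in them was not tested. Replicate 3 of Ifngr1-KO adherent PBS and replicate 2 of Ifngr1-KO ULA IFN-gamma differed from the others of their groups by a chi-square per gene of 20.9 to 27.5, against at most 16.1 between any other pair of replicates, and the counts of called members without both are given where they differ.

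The promoter letters of the set were searched for the elements named above. RefSeq windows of GRCm38.p6, from 250 bases before to 50 bases after a transcription start, were available for 32 of the 37 genes and not matched for Ccna2, Incenp, Aurkb, Foxm1 and Tpx2. A CCAAT box, searched as CCAAT or its reverse complement ATTGG, was found in 25 of the 32 (78.1%), against 41.1% of all 27025 genes with such a window. A CHR, searched as TTTGAA, its reverse complement TTCAAA or the palindrome TTCGAA, was found in 26 of the 32 (81.2%), against 21.7% of all genes, and 23 of the 32 (71.9%) held both motifs, against 8.61%. At least 2 CCAAT boxes were present in 17 of the 32 (53.1%), against 13.3% of all genes. None held an E2F site, searched as TTTCGCGC or TTTGGCGC and their reverse complements, which 0.929% of all genes held. Other forms of the E2F site were not searched. These letters are so rare over all genes that the lack of a match among 32 cannot show that E2F sites are absent. Both strands were searched, and a CCAAT and a CHR match can share at most a base at their ends. For Kif2c, Cdca8, Cdca3 and Kif4 the window lies inside the annotated gene span, so the start used may not be the main one. Kif2c, whose window lies furthest inside, is counted as holding a CHR and no CCAAT box. A match is a description of the letters and not evidence of binding.

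The windows of 5 genes are shown because they span the responses to detachment reported next. Cenpf, a kinetochore-associated protein, rose most in Ifngr1-KO cells, and Mki67, the Ki-67 coat of mitotic chromosomes, differed most between the lines with PBS. Top2a, the topoisomerase that untangles sister DNA, and Cdc20, the activator of the APC/C, did not pass the test in Ifngr1-KO cells and fell in sgNTC cells, and Anln, the anillin scaffold of the cleavage furrow, fell most in both lines. Each is written 5′ to 3′ on the strand of its gene, with every CCAAT and CHR match in capitals.
Cenpf (chr1:189688037-189688336, minus strand): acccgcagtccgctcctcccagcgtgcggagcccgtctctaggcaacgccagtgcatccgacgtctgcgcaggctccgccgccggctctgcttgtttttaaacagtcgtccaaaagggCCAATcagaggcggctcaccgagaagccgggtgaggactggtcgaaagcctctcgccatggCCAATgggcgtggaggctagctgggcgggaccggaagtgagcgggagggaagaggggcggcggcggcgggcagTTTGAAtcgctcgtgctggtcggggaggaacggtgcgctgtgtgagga
Mki67 (chr7:135716330-135716629, minus strand): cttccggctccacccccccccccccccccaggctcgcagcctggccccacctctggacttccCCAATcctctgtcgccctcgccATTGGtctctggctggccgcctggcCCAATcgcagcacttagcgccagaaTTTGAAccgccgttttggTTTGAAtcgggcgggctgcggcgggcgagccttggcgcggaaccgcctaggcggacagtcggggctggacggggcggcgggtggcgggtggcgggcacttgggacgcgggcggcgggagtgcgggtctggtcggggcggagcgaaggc
Top2a (chr11:99024140-99024439, minus strand): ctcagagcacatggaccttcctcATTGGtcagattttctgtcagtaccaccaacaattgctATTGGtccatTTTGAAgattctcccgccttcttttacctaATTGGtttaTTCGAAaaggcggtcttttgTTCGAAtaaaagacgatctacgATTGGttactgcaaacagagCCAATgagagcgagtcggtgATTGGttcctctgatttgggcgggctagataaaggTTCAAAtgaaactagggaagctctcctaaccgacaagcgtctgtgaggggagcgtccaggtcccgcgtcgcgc
Cdc20 (chr4:118437294-118437593, minus strand): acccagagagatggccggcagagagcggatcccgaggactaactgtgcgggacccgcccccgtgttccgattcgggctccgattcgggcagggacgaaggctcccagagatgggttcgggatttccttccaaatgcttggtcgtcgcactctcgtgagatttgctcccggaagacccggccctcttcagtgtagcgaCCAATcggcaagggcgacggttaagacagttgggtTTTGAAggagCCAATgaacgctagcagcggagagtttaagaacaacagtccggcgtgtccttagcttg
Anln (chr9:22389157-22389456, minus strand): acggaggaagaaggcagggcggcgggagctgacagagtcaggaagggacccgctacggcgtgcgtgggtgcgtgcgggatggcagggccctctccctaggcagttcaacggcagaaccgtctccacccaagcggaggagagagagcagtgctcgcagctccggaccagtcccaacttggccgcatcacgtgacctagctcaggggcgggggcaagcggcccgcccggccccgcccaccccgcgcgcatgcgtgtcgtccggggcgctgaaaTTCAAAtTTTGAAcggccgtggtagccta
In these letters Top2a carries 6 CCAAT boxes and 4 CHR matches, Mki67 carries 3 and 2, Cenpf and Cdc20 each carry 2 and 1, and Anln carries 0 and 2, the 2 being 1 base apart.

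The summed level of the 37 genes was low in a single pair of groups, the sgNTC cells in ULA. With PBS it was 3764 ± 29.8 CPM in ULA and 3791 ± 51.2 CPM in adherent Ifngr1-KO cells, and 2253 ± 130.3 CPM in ULA and 3728 ± 122 CPM in adherent sgNTC cells (mean ± SD, n = 3 each). With IFN-gamma it was 4006 ± 146 and 3853 ± 149.7 CPM in ULA and adherent Ifngr1-KO cells, and 2425 ± 134 and 3709.7 ± 273 CPM in ULA and adherent sgNTC cells. The sum in ULA therefore differed from the adherent sum by -0.707% with PBS and 3.96% with IFN-gamma in Ifngr1-KO cells, whereas in sgNTC cells it fell short of the adherent sum by 39.6% with PBS and by 34.6% with IFN-gamma. No library of sgNTC cells in ULA reached the lowest library of any other group. In bulk RNA, fewer dividing cells and less of these transcripts per dividing cell cannot be told apart.

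**Figure D1:**
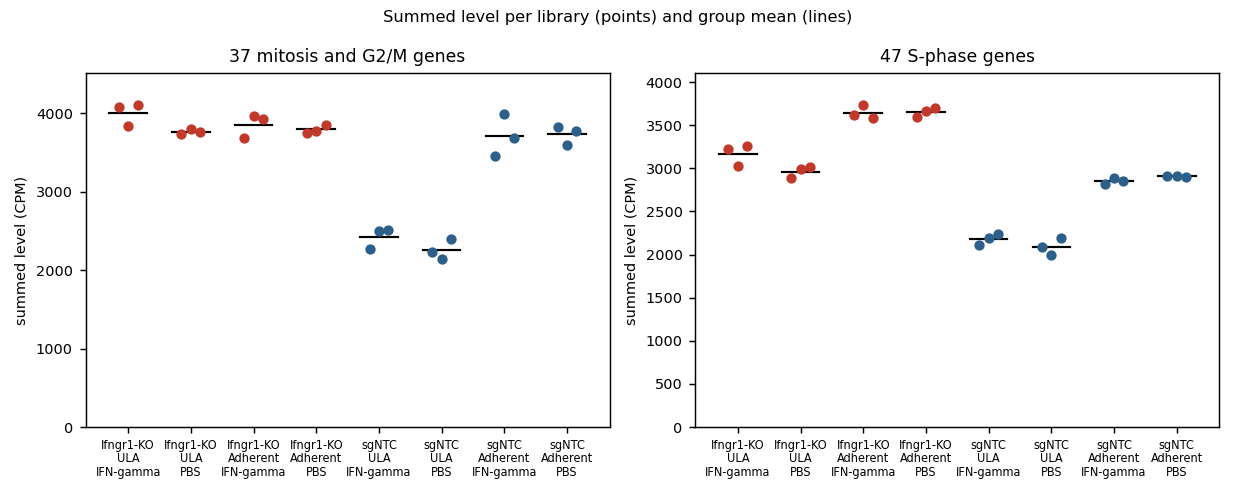
Summed level in CPM of the 37 mitosis and G2/M genes (left) and of 47 S-phase genes (right) in each of 24 libraries, with the group mean as a line and Ifngr1-KO in red and sgNTC in blue. The mitosis sum is 2253 CPM in sgNTC ULA PBS cells and 3728 to 3791 CPM in adherent PBS cells of either line, while the S-phase sum is lower in ULA than in adherent cells in both lines.

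On detachment the set split in Ifngr1-KO cells and most of it fell in sgNTC cells. A gene is called when the adjusted p of edgeR's quasi-likelihood test (Benjamini-Hochberg over 14622 genes) is under 0.05, and log2 fold changes are ULA over adherent unless stated. In Ifngr1-KO cells with PBS 14 of the 37 genes rose and 7 fell, against 29.6% and 31.1% of all genes tested, with a median log2 change of 0.11 over the set, and with IFN-gamma 15 rose and 6 fell, against 29.3% and 30.9%, with a median of 0.12. The share that rose was a little above the background there and the share that fell was below it. Without both libraries that stood apart 18 rose and 7 fell with PBS, and 18 rose and 6 fell with IFN-gamma. The median with PBS was 0.18 without Ifngr1-KO adherent replicate 3 or without Ifngr1-KO ULA replicate 1. In sgNTC cells with PBS 32 fell and 0 rose, against 32.1% and 32.5% of all genes, with a median log2 change of -0.64 over the set and 0.03 over all genes. With IFN-gamma 30 fell and 1 (Cenpf) rose, against 32% and 32.6% of all genes, with a median of -0.52. In every comparison reported here the median over all genes tested lay between -0.03 and 0.05. Scaling by library totals instead of TMM moved every sgNTC log2 change by 0.10 with PBS and by 0.12 with IFN-gamma. It left 29 falls with PBS, and with IFN-gamma 28 falls among 30 called genes. The count of genes that rose with IFN-gamma in sgNTC cells thus depended on the scaling too. With IFN-gamma the sgNTC falls of Plk1 and Birc5 were lost with library totals (adjusted p = 0.215 and 0.118) and without sgNTC adherent IFN-gamma replicate 2 or sgNTC ULA IFN-gamma replicate 1.

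Among the genes that start mitosis, 4 of the 5 cyclins and kinases rose in ULA in Ifngr1-KO cells with PBS and all 5 with IFN-gamma, while Foxm1, the forkhead transcription factor that activates the set, fell in both lines. Values here and for the further roles are with PBS unless stated. Of all genes tested, 29.6% rose in Ifngr1-KO cells with PBS and 29.3% with IFN-gamma, and 32.1% and 32% fell in sgNTC cells. These shares belong beside every count by role, and no role was tested against them. Ccna2 (cyclin A2) had 98.2, 100.1 and 103 CPM in ULA and 58.3, 59.8 and 62.3 CPM in adherent Ifngr1-KO libraries with PBS, against 52.5, 48.4 and 58.9 CPM in ULA and 61.3, 58.0 and 60.03 CPM in adherent sgNTC libraries. The Ifngr1-KO groups were well apart and the sgNTC groups overlapped, with log2 changes of 0.74 ± 0.087 (SE, edgeR adjusted p = 1.57e-08) and -0.17 ± 0.087 (adjusted p = 0.0940). Ccnb1 (cyclin B1) had 91.0, 105 and 109 CPM in ULA and 89.8, 82.2 and 101 CPM in adherent Ifngr1-KO libraries, against 63.4, 63.6 and 66.0 CPM in ULA and 114, 111 and 114 CPM in adherent sgNTC libraries. The Ifngr1-KO value of 0.16 had an interval of 0.01 to 0.32 and did not pass the test (edgeR adjusted p = 0.0636), and in sgNTC cells it fell by 0.81 ± 0.076 (adjusted p = 3.96e-11). With IFN-gamma Ccnb1 rose by 0.30 ± 0.075 in Ifngr1-KO cells (edgeR adjusted p = 8.49e-04) and fell by 0.63 in sgNTC cells. Ccnb2 (cyclin B2) rose by 0.50 in Ifngr1-KO cells and had -0.17 in sgNTC cells, not called. Plk1, the Polo kinase that triggers entry, had 49.0, 50.3 and 49.5 CPM in ULA and 32.4, 34.6 and 38.6 CPM in adherent Ifngr1-KO libraries, against 35.6, 32.7 and 37.01 CPM in ULA and 42.1, 43.8 and 44.2 CPM in adherent sgNTC libraries. It rose by 0.49 ± 0.094 in Ifngr1-KO cells (edgeR adjusted p = 3.06e-05) and had -0.31 ± 0.094 in sgNTC cells (adjusted p = 0.00503), a call that was lost with library totals (-0.21, adjusted p = 0.0668). Aurka, the centrosomal Aurora A kinase, had 0.25 in Ifngr1-KO cells (adjusted p = 0.0394, and 0.0783 to 0.129 without each of 3 single libraries in turn) and -0.46 in sgNTC cells. Foxm1 had 89.8, 87.6 and 88.2 CPM in ULA and 112, 127 and 119 CPM in adherent Ifngr1-KO libraries, against 49.8, 50.1 and 48.5 CPM in ULA and 103, 94.5 and 99.7 CPM in adherent sgNTC libraries. It fell by 0.43 ± 0.052 on the log2 scale in Ifngr1-KO cells (edgeR adjusted p = 5.33e-09) and by 1.00 ± 0.053 in sgNTC cells (adjusted p = 3.57e-18), so that Foxm1 and cyclins A2 and B2 moved in opposite directions in Ifngr1-KO cells. The cultures of Plk1 and of Foxm1 did not overlap in either line.

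The chromosome proteins Mki67 and Top2a are both widely used to mark cycling cells. Mki67 had 419, 408 and 403 CPM in ULA and 276, 267 and 258 CPM in adherent Ifngr1-KO libraries, against 211, 212 and 232 CPM in ULA and 327, 271 and 313 CPM in adherent sgNTC libraries. It rose by 0.62 ± 0.066 in Ifngr1-KO cells (edgeR adjusted p = 6.39e-10) and fell by 0.48 ± 0.066 in sgNTC cells (adjusted p = 1.26e-07), with no overlap between cultures in either line. Top2a had 501, 499 and 510.0 CPM in ULA and 489, 491 and 532 CPM in adherent Ifngr1-KO libraries, against 273, 262 and 286 CPM in ULA and 541, 478 and 516 CPM in adherent sgNTC libraries. Its Ifngr1-KO groups overlapped, with a log2 change of 0.00 and an interval of -0.12 to 0.12, while in sgNTC cells it fell by 0.90 ± 0.06 (edgeR adjusted p = 2.59e-15).

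At the kinetochore, which ties chromosomes to spindle fibres, Cenpf stood at the upper end of the set. It had 129, 119 and 119 CPM in ULA and 65.3, 59.8 and 60.7 CPM in adherent Ifngr1-KO libraries, against 80.9, 85.5 and 85.2 CPM in ULA and 89.9, 78.1 and 81.7 CPM in adherent sgNTC libraries. The Ifngr1-KO change was 0.98 ± 0.068 (edgeR adjusted p = 7.61e-15), and the sgNTC change was 0.01 with PBS (adjusted p = 0.917) and 0.23 ± 0.067 with IFN-gamma (adjusted p = 0.00289). With PBS its Ifngr1-KO cultures were far apart and its sgNTC cultures overlapped. Nuf2 and Ndc80 sit in the same microtubule-binding complex. Nuf2 rose by 0.40 in Ifngr1-KO cells and had -0.06 in sgNTC cells, not called, whereas Ndc80 had -0.03 in Ifngr1-KO cells, not called, and fell by 0.84 in sgNTC cells. Cenpe, a kinesin that moves chromosomes to the spindle equator, and Cenpa, the histone H3 variant of centromeres, had 0.01 and 0.14 in Ifngr1-KO cells, neither called, and fell by 0.89 and 0.64 in sgNTC cells.

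The 4 spindle checkpoint genes, which hold anaphase back until every chromosome is attached, all fell in sgNTC cells with PBS. Bub1, a checkpoint kinase, had 60.6, 60.9 and 61.5 CPM in ULA and 79.4, 82.5 and 81.7 CPM in adherent Ifngr1-KO libraries, against 37.7, 36.6 and 39.8 CPM in ULA and 71.0, 67.0 and 69.5 CPM in adherent sgNTC libraries. It fell in both lines, by 0.41 in Ifngr1-KO cells (edgeR adjusted p = 5.56e-07) and by 0.86 in sgNTC cells (adjusted p = 3.29e-14), without overlap. Bub1b, its relative BubR1, rose by 0.37 in Ifngr1-KO cells and had -0.21 in sgNTC cells (edgeR adjusted p = 0.00553, or 0.149 with library totals). Ttk, the Mps1 kinase, and Mad2l1, the inhibitor Mad2, had -0.04 and -0.11 in Ifngr1-KO cells, neither called, and fell by 0.65 and 0.59 in sgNTC cells.

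The chromosomal passenger complex corrects faulty attachments and guides cytokinesis, and its 4 genes also all fell in sgNTC cells. The kinase subunit Aurkb had 41.1, 45.4 and 44.5 CPM in ULA and 56.5, 55.9 and 56.1 CPM in adherent Ifngr1-KO libraries, against 23.5, 24.7 and 26.3 CPM in ULA and 42.5, 44.3 and 47.4 CPM in adherent sgNTC libraries. It fell by 0.36 in Ifngr1-KO cells (edgeR adjusted p = 2.28e-04) and by 0.85 in sgNTC cells (adjusted p = 5.09e-11), without overlap. Birc5 (survivin), Cdca8 (borealin) and Incenp, the scaffold, had -0.18, 0.13 and -0.01 in Ifngr1-KO cells, none called, and fell by 0.54, 0.67 and 0.60 in sgNTC cells. Cdca8 overlaps a counted gene on the opposite strand, as do Ccna2, Cdc20, Ube2c, Kif18b, Kif4, Nusap1 and Prc1, and Foxm1 overlaps Tex52 on the same strand. These overlaps are of whole gene spans and not of exons. The counting used no strand, and whether reads of such partners entered the counts of a member was not tested.

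Of the genes for anaphase and protein removal, Espl1, the separase that cuts cohesin, fell in both lines. It had 41.3, 37.5 and 43.7 CPM in ULA and 64.5, 73.1 and 69.2 CPM in adherent Ifngr1-KO libraries, against 27.0, 24.8 and 28.9 CPM in ULA and 65.3, 60.3 and 64.8 CPM in adherent sgNTC libraries. Its log2 change was -0.76 ± 0.077 in Ifngr1-KO cells (edgeR adjusted p = 1.35e-10) and -1.24 ± 0.078 in sgNTC cells (adjusted p = 4.81e-16), and the ULA libraries were below all adherent ones. Cdc20 had 52.2, 56.4 and 53.7 CPM in ULA and 43.8, 47.4 and 56.7 CPM in adherent Ifngr1-KO libraries, against 43.0, 39.3 and 49.9 CPM in ULA and 68.5, 72.3 and 73.6 CPM in adherent sgNTC libraries. The Ifngr1-KO libraries overlapped and gave 0.13 with an interval of -0.06 to 0.33, and the sgNTC groups, which did not overlap, gave -0.70 ± 0.094 (edgeR adjusted p = 1.89e-07). Ube2c, the ubiquitin-conjugating enzyme of the APC/C, and Cdca3, a trigger of mitotic entry, had 0.04 and 0.11 in Ifngr1-KO cells, neither called, and fell by 0.74 and 0.44 in sgNTC cells.

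Of the 7 spindle motors and microtubule proteins, 4 rose in Ifngr1-KO cells under either treatment, and 6 fell with PBS and 5 with IFN-gamma in sgNTC cells. Nusap1, which bundles spindle fibres, had 47.6, 50.3 and 53.1 CPM in ULA and 30.9, 30.3 and 36.9 CPM in adherent Ifngr1-KO libraries, against 27.9, 28.8 and 29.8 CPM in ULA and 35.6, 35.8 and 35.3 CPM in adherent sgNTC libraries. It rose by 0.62 in Ifngr1-KO cells (edgeR adjusted p = 1.01e-05) and had -0.30 in sgNTC cells (adjusted p = 0.0145, or 0.0841 with library totals and 0.0604 without sgNTC ULA PBS replicate 1). Kif2c, a kinesin that shortens microtubules, rose by 0.54 in Ifngr1-KO cells and had 0.03 in sgNTC cells, not called. Kif18b, a motor that works with Kif2c at microtubule ends, had -0.20 in Ifngr1-KO cells, a call (edgeR adjusted p = 0.0456) that was lost under 10 alternatives (adjusted p = 0.0583 to 0.276), and fell by 1.12 in sgNTC cells. Kif4, a motor on chromosome arms, and Hmmr, a spindle assembly factor, rose by 0.27 and 0.25 in Ifngr1-KO cells and fell by 0.49 and 0.71 in sgNTC cells. Tpx2, which activates Aurora A, and Kif11, the motor that separates the spindle poles, had -0.10 and 0.05 in Ifngr1-KO cells, neither called, and fell by 0.94 and 0.49 in sgNTC cells.

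The 5 cytokinesis genes held both directions in Ifngr1-KO cells. Anln had 275, 287 and 282 CPM in ULA and 567, 562 and 526 CPM in adherent Ifngr1-KO libraries, against 129, 127 and 153 CPM in ULA and 401, 372 and 397 CPM in adherent sgNTC libraries. It fell by 0.97 ± 0.056 in Ifngr1-KO cells (edgeR adjusted p = 5.16e-17) and by 1.52 ± 0.057 in sgNTC cells (adjusted p = 2.03e-22), and the ULA libraries were below all adherent ones. Ect2, which activates RhoA at the furrow, had 94.9, 99.4 and 106 CPM in ULA and 172, 160.5 and 164 CPM in adherent Ifngr1-KO libraries, against 55.7, 50.8 and 58.4 CPM in ULA and 149.9, 132 and 139.6 CPM in adherent sgNTC libraries. It fell by 0.73 in Ifngr1-KO cells (edgeR adjusted p = 2.51e-12) and by 1.36 in sgNTC cells (adjusted p = 1.55e-19), with no overlap between the cultures of either line. Prc1, which bundles the microtubules of the spindle midzone, and Kif23, the motor of the centralspindlin complex, rose by 0.43 and 0.32 in Ifngr1-KO cells and fell by 0.39 and 0.54 in sgNTC cells. Racgap1, the partner of Kif23 in centralspindlin, had -0.10 in Ifngr1-KO cells, not called, and fell by 0.82 in sgNTC cells.

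**Figure D2:**
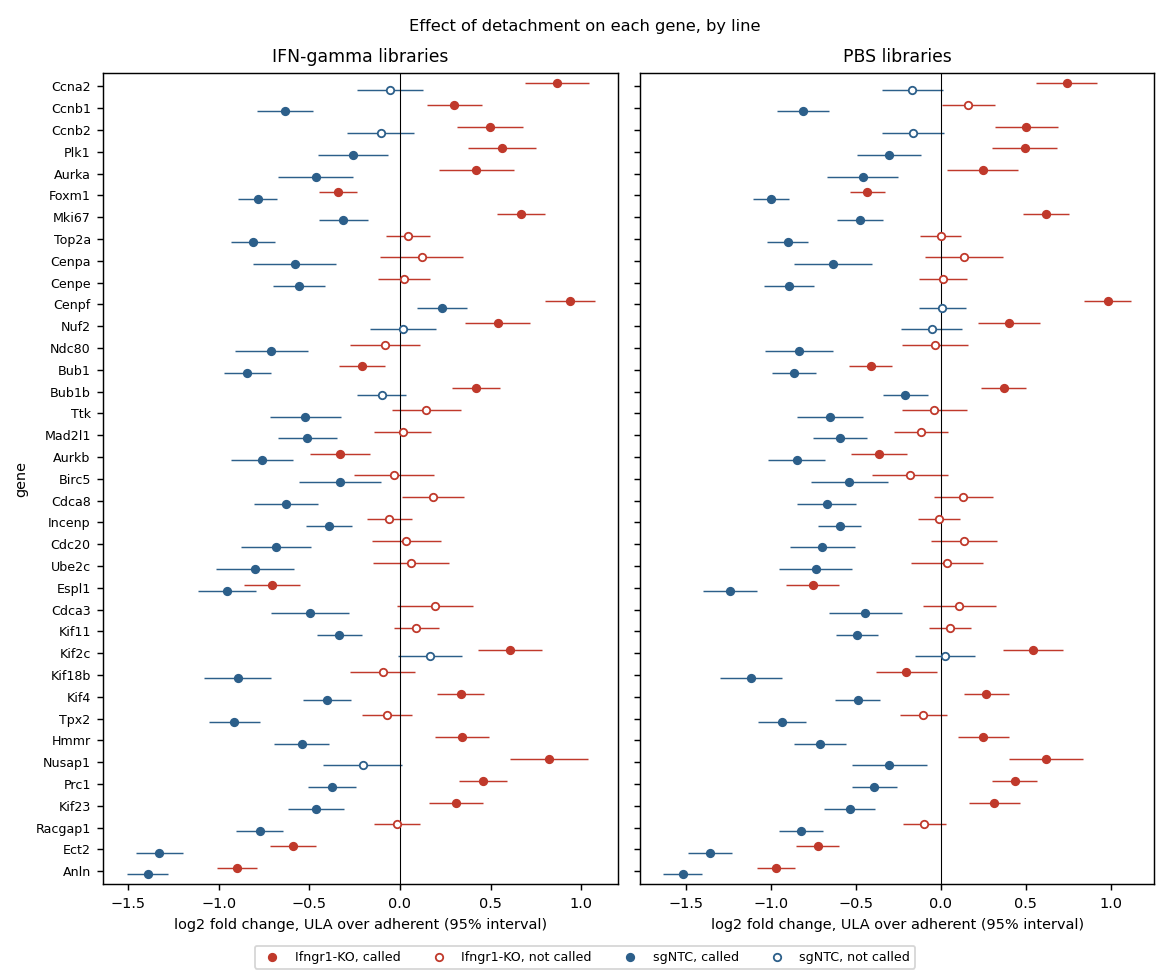
Log2 fold change of ULA over adherent for each of the 37 genes with IFN-gamma (left) and PBS (right), with 95% intervals, Ifngr1-KO in red and sgNTC in blue, and filled points for called genes. Every red point lies to the right of its blue point, and the order of the genes is similar in both lines. With PBS Anln is lowest in both, at -0.97 in Ifngr1-KO and -1.52 in sgNTC cells. Cenpf is highest in Ifngr1-KO cells at 0.98 and has 0.01 in sgNTC cells, where Kif2c is highest at 0.03.

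Sorted by call with PBS, 9 genes (Aurka, Bub1b, Hmmr, Kif23, Kif4, Mki67, Nusap1, Plk1 and Prc1) rose in Ifngr1-KO cells and fell in sgNTC cells. Another 5 (Ccna2, Ccnb2, Cenpf, Kif2c and Nuf2) rose in Ifngr1-KO cells and were not called in sgNTC cells, 7 (Anln, Aurkb, Bub1, Ect2, Espl1, Foxm1 and Kif18b) fell in both, and 16 fell in sgNTC cells and were not called in Ifngr1-KO cells. The sorting rests on some calls that alternatives lost, those of Aurka and Kif18b in Ifngr1-KO cells and of Bub1b, Nusap1 and Plk1 in sgNTC cells. The shares of all genes in these joint classes were not computed. The ranking of the genes was similar in the lines. Across the 37 genes the log2 changes of Ifngr1-KO and sgNTC cells, which share no library, had a Pearson r of 0.897 with PBS and 0.877 with IFN-gamma, given as a description because genes are not independent replicates. The spread of the changes over genes was 0.42 (SD) in Ifngr1-KO cells and 0.36 in sgNTC cells, and the spread of the difference between the lines was 0.19.

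**Figure D3:**
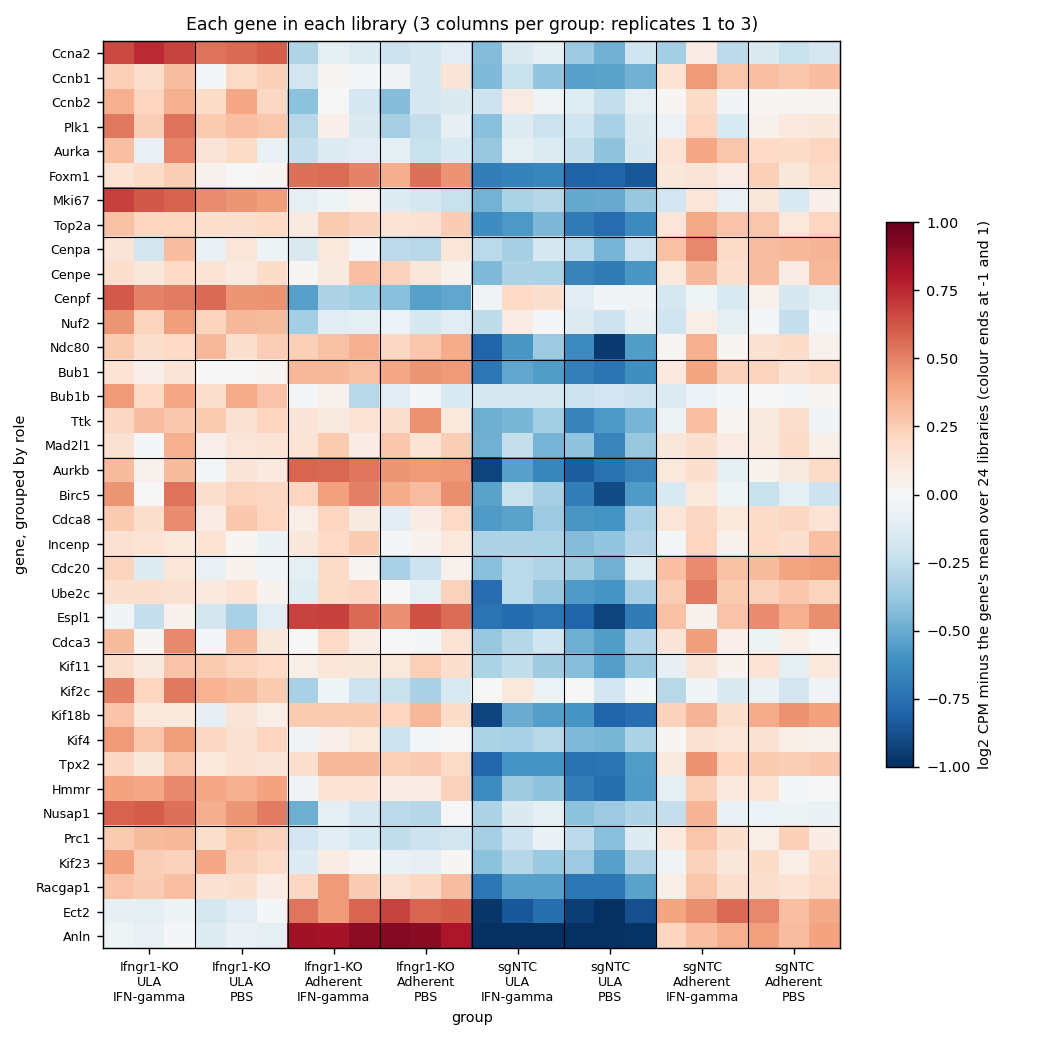
Log2 CPM of each of the 37 genes in each of 24 libraries, relative to that gene's mean over all libraries, with genes grouped by role (rows) and 3 libraries per group (columns). The sgNTC ULA columns are low for most genes, while Anln, Ect2, Espl1 and Foxm1 are lower in ULA than in adherent columns of both lines.

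Whether detachment acted differently on the lines was tested directly, as the ULA over adherent change of Ifngr1-KO cells less that of sgNTC cells. With PBS the change was larger in Ifngr1-KO than in sgNTC cells for all 37 genes, with 36 called higher and 0 lower, against 16.6% of all genes called higher. The median difference was 0.76 on the log2 scale over the set and 0.01 over all genes. With IFN-gamma 35 were called higher and 0 lower, against 19% of all genes, with a median of 0.70. Mki67 differed most with PBS, by 1.09 ± 0.093 (edgeR adjusted p = 7.54e-11), and Top2a, Cenpf and Hmmr differed by 0.90, 0.97 and 0.96. Foxm1 differed by 0.57 ± 0.073, and Anln, although it fell in both lines, by 0.55 ± 0.078 (adjusted p = 1.37e-06). Birc5 was not called with PBS (0.36, interval 0.04 to 0.67, adjusted p = 0.0878), and Birc5 and Espl1 were not called with IFN-gamma (0.30 and 0.25). With library totals Incenp and Kif2c were lost as well with IFN-gamma (adjusted p = 0.0586 and 0.0546). Without both libraries that stood apart all 37 were called under either treatment.

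In ULA every one of the 37 genes was higher in Ifngr1-KO than in sgNTC cells, with PBS and with IFN-gamma, against 24.5% and 27.6% of all genes called higher. The median log2 difference, Ifngr1-KO over sgNTC, was 0.67 with PBS and 0.68 with IFN-gamma. Anln had the smallest adjusted p, at 275, 287 and 282 CPM in Ifngr1-KO and 129, 127 and 153 CPM in sgNTC libraries with PBS, a 2.07-fold difference (log2 1.05 ± 0.056, edgeR adjusted p = 4.23e-17). Hmmr had 115, 112 and 116 CPM in Ifngr1-KO and 54.1, 51.9 and 59.3 CPM in sgNTC libraries, a log2 difference of 1.05 ± 0.075. The libraries of the lines did not overlap for either gene. Foxm1, Top2a and Mki67 were 1.79-fold, 1.84-fold and 1.88-fold higher, while Cdc20 had the smallest difference, at 0.30 ± 0.094 (edgeR adjusted p = 0.00999). With IFN-gamma Racgap1 had 156, 153 and 158 CPM in Ifngr1-KO and 77.7, 87.8 and 88.1 CPM in sgNTC libraries, a log2 difference of 0.88, and the smallest difference was that of Cenpa at 0.35. Cenpa with PBS (0.32, adjusted p = 0.0187) was the member whose call was lost with library totals (0.28, adjusted p = 0.0531) and without either Ifngr1-KO or sgNTC ULA PBS replicate 2.

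On adherent plates the lines differed in both directions. With PBS 6 of the 37 genes were higher and 12 lower in Ifngr1-KO than in sgNTC cells, against 20.1% and 23.9% of all genes, and the median difference was -0.10. With IFN-gamma 5 were higher and 8 lower, against 20.2% and 23.1%, with a median of -0.01. With library totals the split was 7 higher and 7 lower with PBS, and 7 higher and 6 lower with IFN-gamma, so the balance of directions depends on the scaling. It depended on single libraries too. With PBS it was 7 and 7 without Ifngr1-KO adherent replicate 1, 6 and 7 without Ifngr1-KO replicate 2 and 7 and 6 without sgNTC replicate 3, and the median ran from -0.08 to -0.03 over the 6 libraries left out in turn. With IFN-gamma it was 6 and 4 without Ifngr1-KO adherent replicate 1 and 9 and 4 without sgNTC replicate 2, and the median ran from -0.09 to 0.04, across 0. Anln had 567, 562 and 526 CPM in Ifngr1-KO and 401, 372 and 397 CPM in sgNTC libraries with PBS, a log2 difference of 0.50 ± 0.055 (edgeR adjusted p = 3.02e-09). Foxm1 was 0.27 higher on the log2 scale, and Birc5 0.56 higher. Cdc20 had 43.8, 47.4 and 56.7 CPM in Ifngr1-KO and 68.5, 72.3 and 73.6 CPM in sgNTC libraries, with -0.54 ± 0.094 (edgeR adjusted p = 3.23e-05). Cenpf was lower too (-0.43), and Ccnb1 (-0.31), Plk1 (-0.30) and Mki67 (-0.18) were called lower. The calls of Plk1 and Mki67 were lost without single libraries, and that of Mki67 also with library totals and without both libraries that stood apart (-0.16, adjusted p = 0.0950), and those of Ccnb2, Incenp, Kif23 and Kif4 were lost under several alternatives. Top2a had -0.02, with an interval of -0.14 to 0.10. With IFN-gamma Aurkb and Espl1 joined Anln and Foxm1 at the top by adjusted p, at 0.50 and 0.43, while the calls of Ccnb2, Cdc20, Cenpa and Nusap1 were lost under some alternatives.

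IFN-gamma changed at most 1 of the 37 genes in each setting by the test used. In Ifngr1-KO cells 0 were called in ULA and 0 on adherent plates, against 0% and 0.00684% of all genes. In sgNTC cells 1 was called in ULA and 0 on adherent plates, against 2.05% and 0.315% of all genes. At an unadjusted p under 0.05 by edgeR there were 4 in Ifngr1-KO ULA, 3 in Ifngr1-KO adherent, 8 in sgNTC ULA and 2 in sgNTC adherent cells. The share of all genes at this unadjusted threshold was not computed, so nothing is read from these counts. DESeq2 called 0, 0, 2 and 0 members in the same order, and 1, 25, 482 and 83 of all genes. The called gene was Cenpe, with 65.8, 72.1 and 71.9 CPM with IFN-gamma and 56.2, 55.1 and 59.7 CPM with PBS in sgNTC ULA libraries. The groups did not overlap, with a log2 change of 0.30 ± 0.071 (edgeR adjusted p = 0.0181), but the call was lost without any of 4 of the 6 libraries (adjusted p = 0.0721 to 0.175). Birc5 had a larger change of 0.35 there and was not called. Mki67 had 485, 463 and 453 CPM with IFN-gamma and 419, 408 and 403 CPM with PBS in Ifngr1-KO ULA libraries, against 218, 241 and 247 CPM with IFN-gamma and 211, 212 and 232 CPM with PBS in sgNTC ULA libraries. The Ifngr1-KO groups did not overlap and the sgNTC groups did, and neither change passed the test (0.19, interval 0.06 to 0.32, and 0.11, interval -0.03 to 0.24). Values ran above 0 for 35 of the 37 genes in ULA cells of either line, with medians of 0.10 in Ifngr1-KO and 0.09 in sgNTC cells, and for 24 and 19 genes on adherent plates. The share of all genes above 0 was not computed, so these counts of signs are a description and not a test of a rise. The medians moved with single libraries. In Ifngr1-KO ULA cells the median was 0.06 without IFN-gamma replicate 3, in sgNTC ULA cells it was 0.03 without PBS replicate 2 and 0.14 without IFN-gamma replicate 1, and on adherent plates it fell below 0 without IFN-gamma replicate 2 in Ifngr1-KO cells (-0.02) and without IFN-gamma replicate 2 (-0.08) or PBS replicate 2 (-0.01) in sgNTC cells. In none of the 4 settings did a log2 change leave the range from -0.22 to 0.35.

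**Figure D4:**
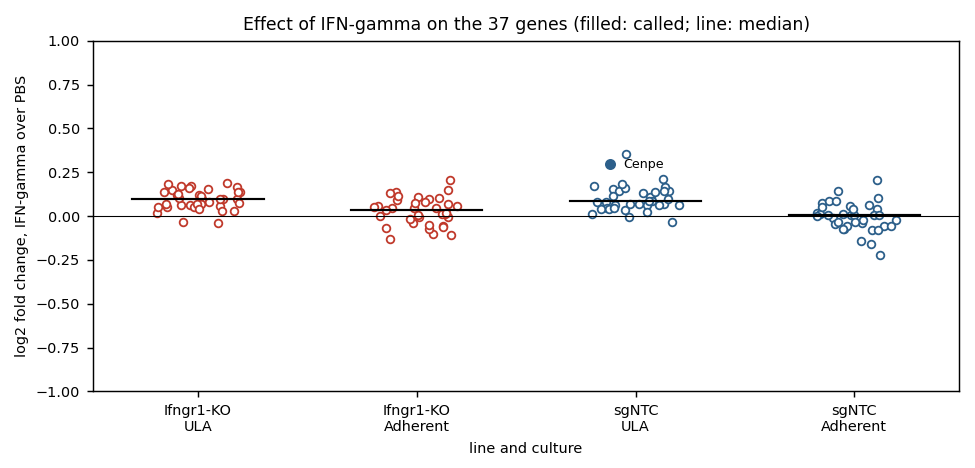
Log2 fold change of IFN-gamma over PBS for each of the 37 genes in the 4 combinations of line and culture, with the median as a line and filled points for called genes. All points lie between -0.22 and 0.35, and the single called point is Cenpe at 0.30 in sgNTC ULA cells.

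No difference in the response to IFN-gamma by culture or line was called for any of the 37 genes. The response of sgNTC cells in ULA less that on adherent plates was called for 0, against 0.0479% of all genes. The response of Ifngr1-KO cells less that of sgNTC cells was called for 0 in ULA and 0 on adherent plates, against 1.33% and 0.13% of all genes. At an unadjusted p under 0.05 by edgeR there were 5, 2 and 5, a threshold at which the share of all genes was not computed either. DESeq2 called 0 members in each, and 9, 467 and 96 of all genes. For Mki67 the lines differed in ULA by 0.08, with an interval of -0.11 to 0.27, and for Cdc20 by 0.11, with an interval of -0.16 to 0.38.

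Genes of the neighbouring phases and the regulators of the set were followed for comparison. Of 83 other mitosis genes, 19 rose and 40 fell on detachment in Ifngr1-KO cells with PBS, and 4 rose and 65 fell in sgNTC cells, with medians of -0.13 and -0.67. Over all genes tested the shares that rose and fell were 29.6% and 31.1% in Ifngr1-KO and 32.5% and 32.1% in sgNTC cells. Cks1b, which binds the cyclin-dependent kinases, was among the top by adjusted p in both lines and fell by 1.60 in Ifngr1-KO cells and by 2.06 in sgNTC cells. Sgo1, the protector of centromeric cohesin, fell by 1.13 in Ifngr1-KO cells and by 1.59 in sgNTC cells. Most S-phase genes fell in both lines. Of 47, 33 fell and 5 rose in Ifngr1-KO cells with PBS, and 39 fell and 0 rose in sgNTC cells, with medians of -0.44 and -0.52. The difference between the lists was not tested. The replication licensing genes Cdt1, Cdc6 and Mcm2 fell by 1.41, 1.83 and 0.96 in Ifngr1-KO cells and by 1.67, 1.66 and 1.24 in sgNTC cells (edgeR adjusted p of 6.75e-18 or less in Ifngr1-KO and 1.80e-18 or less in sgNTC cells). With PBS the change on detachment was called higher in Ifngr1-KO than in sgNTC cells for 15 and lower for 1 of the 47 S-phase genes, with a median of 0.20, and higher for 53 and lower for 0 of the other mitosis genes, with a median of 0.49. Of all genes tested 16.6% were called higher and 11.2% lower in that comparison. The summed S-phase level was 2963 ± 67.5 CPM in ULA and 3654 ± 50.2 CPM in adherent Ifngr1-KO cells, and 2093 ± 96.1 CPM in ULA and 2907 ± 7.57 CPM in adherent sgNTC cells. On adherent plates it was thus 25.7% higher in Ifngr1-KO than in sgNTC cells, where the sum of the 37 mitosis genes differed by 1.70%.

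**Figure D5:**
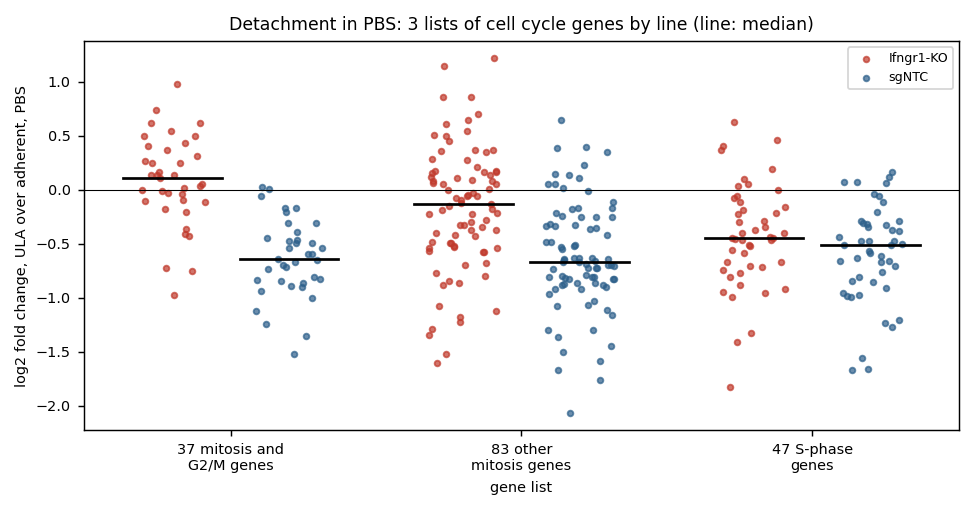
Log2 fold change of ULA over adherent with PBS for each gene of 3 lists, with Ifngr1-KO in red left of sgNTC in blue and the median as a line. Medians are 0.11 and -0.64 for the 37 mitosis and G2/M genes, -0.13 and -0.67 for 83 other mitosis genes, and -0.44 and -0.52 for 47 S-phase genes.

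Among 16 genes of the MuvB core, DREAM and NF-Y, 3 rose and 7 fell on detachment in Ifngr1-KO cells with PBS, and 4 rose and 8 fell in sgNTC cells, against 29.6% and 31.1% of all genes in Ifngr1-KO and 32.5% and 32.1% in sgNTC cells. Lin54, the MuvB subunit that contacts the CHR, had 47.2 ± 1.86 CPM in ULA and 80.2 ± 4.06 CPM in adherent Ifngr1-KO cells, and 31.6 ± 2.04 CPM in ULA and 64.0 ± 2.08 CPM in adherent sgNTC cells (SD, n = 3 each), and it fell by 0.76 in Ifngr1-KO and by 1.02 in sgNTC cells on the log2 scale. In ULA with PBS Mybl2, the B-MYB partner of MuvB in cycling cells, had 16.0 ± 2.19 CPM in Ifngr1-KO and 8.37 ± 0.899 CPM in sgNTC cells, a log2 difference of 0.93 ± 0.11 (edgeR adjusted p = 6.00e-09). Mybl2 was also higher on adherent plates, at 28.3 ± 1.53 CPM in Ifngr1-KO and 16.9 ± 0.458 CPM in sgNTC cells, a log2 difference of 0.74 ± 0.10 (edgeR adjusted p = 3.05e-07). Rbl1, the p107 pocket protein of DREAM, was higher in ULA, at 78.0 ± 1.61 CPM in Ifngr1-KO and 50.5 ± 2.48 CPM in sgNTC cells, and had a log2 difference of 0.36 on adherent plates (edgeR adjusted p = 1.65e-05). The responses were also set beside the promoter motifs. The median difference between the lines with PBS was 0.76 over the 26 genes with a CHR and 0.69 over the 6 without, and 0.77 over the 25 with a CCAAT box and 0.52 over the 7 without, given with no test.

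Per length of transcript, the members covered a wide range. The mean level over the 8 groups ran from 4.19 RPKM (CPM per kilobase of transcript) for Ttk and 4.67 RPKM for Nuf2 to 42.9 RPKM for Tpx2 and 50.9 RPKM for Top2a, with Mki67 at 30.9 RPKM, Cdc20 at 30.0 RPKM, Ccnb1 at 22.3 RPKM and Plk1 at 18.9 RPKM.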

How the data were processed

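The submitters' processing notes name Trimmomatic, HISAT2, SAMtools, featureCounts, Subread 2.1.1 and DESeq2, and the build GRCm38 (mm10), without saying what each was used for. The deposited values are raw counts per gene for each library. Per the file headers, featureCounts 2.1.1 ran on paired reads with each mate counted by itself and with no strand option. Symbols were paired with 30934 of 31062 features. Genes were kept by edgeR's filterByExpr (minimum count 10), which left 14622, and 1 model with a mean per group was fitted to all 24 libraries (TMM factors 0.958 to 1.05, robust quasi-likelihood, 16 residual degrees of freedom, edgeR 4.0.16, R 4.3.3). Tests were two-sided with Benjamini-Hochberg adjustment over all genes tested at 0.05. CPM uses TMM-adjusted library sizes, RPKM also the gene length in the deposited tables. Alternatives covered scaling, filtering, halved counts, DESeq2 1.42.0, the groups in the fit, the replicate number and leaving out libraries. The named genes are all 37 members, with detail for up to 4 called ones per comparison by adjusted p, 6 index members and the extremes of each role group, and up to 3 called genes per further list. The members, lists and comparisons were chosen with earlier results of these data known. The code was tested on simulated counts.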

Additional observations from a re-analysis of the deposited data

Results flagged for a closer look

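The effect of detachment was compared between the lines by a direct test of the difference, Ifngr1-KO minus sgNTC. A difference was called for 36 of the 37 genes with PBS and for 35 with IFN-gamma, all higher in Ifngr1-KO cells. Of all genes tested 16.6% were called higher and 11.2% lower with PBS, and 19% were called higher with IFN-gamma. These calls are the results that stand out for a closer look. With PBS the log2 difference was 1.09 for Mki67, 0.97 for Ccnb1, 0.97 for Cenpf, 0.96 for Hmmr, 0.90 for Top2a, 0.83 for Cdc20, 0.80 for Plk1 and 0.57 for Foxm1. With IFN-gamma it was largest for Nusap1, at 1.03. Among the named genes it was then 0.98 for Mki67, 0.93 for Ccnb1, 0.85 for Top2a, 0.83 for Prc1, 0.82 for Plk1, 0.76 for Racgap1, 0.72 for Cdc20 and 0.44 for Foxm1. The share of mitochondrial counts differed between the same groups, and its part in these values was not tested.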

How the results depend on the processing

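Over all alternatives no called member of a comparison changed sign, and each total of called members stayed within 1.5 times its value, with 1 exception. The split by direction on adherent plates and the medians near 0 were less stable. With 6 higher and 12 lower for Ifngr1-KO against sgNTC with PBS, the lower ones numbered 6 to 10 without single libraries, and the medians of Ifngr1-KO against sgNTC on adherent plates with IFN-gamma (-0.09 to 0.04), of IFN-gamma on adherent plates (Ifngr1-KO -0.02 to 0.07, sgNTC -0.08 to 0.05) and of the difference between the lines in the response to IFN-gamma (-0.04 to 0.07 in ULA, -0.01 to 0.10 on adherent plates) crossed 0. The first of these medians was 0.04 with library totals and 0.01 without a filter on low counts, and that in ULA was -0.01 with library totals. For detachment in Ifngr1-KO cells with PBS the median of 0.11 was 0.18 without adherent replicate 3 or without ULA replicate 1. The count for IFN-gamma in sgNTC ULA cells, 1 in the model used, was 2 without a filter on low counts, 2 with DESeq2 and 2 without both libraries that stood apart, and ran from 0 to 2 when single libraries were left out. For the effect of detachment, single libraries left out gave 19 to 24 calls with PBS and 21 to 25 with IFN-gamma in Ifngr1-KO cells, 31 to 33 and 29 to 32 in sgNTC cells, and 36 to 37 and 35 to 37 for the difference between the lines. With the replicate block the calls numbered 22 and 22 in Ifngr1-KO and 32 and 31 in sgNTC cells, 36 and 35 for the difference between the lines, 37 and 37 for Ifngr1-KO against sgNTC in ULA, 17 and 14 on adherent plates, 1 for IFN-gamma in sgNTC ULA cells and 0 for IFN-gamma elsewhere. Same-numbered libraries did not deviate together (correlation -0.0612 to 0.0519 over 36 pairs). No shared shift by number was thus seen, which does not show how the samples were prepared. Scaling by library totals moved the difference between the lines by -0.09 with PBS and -0.12 with IFN-gamma and left 36 and 33 calls. The lowest count of a member in any library was 557. Each mate of a pair was counted by itself, so a fragment can be counted more than once and independent fragments are fewer. The limits are the design: each genotype is 1 line, dead cells were removed from ULA wells alone, and counts relative to the library total cannot show the number of dividing cells.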

Other observations

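Ccnd1, the cyclin D1 gene that links growth signals to the cell cycle, had 119.9 ± 2.16 CPM in ULA and 202 ± 6.29 CPM in adherent Ifngr1-KO cells with PBS, and 45.5 ± 3.59 CPM in ULA and 156 ± 6.28 CPM in adherent sgNTC cells (mean ± SD, n = 3 each). It fell by 0.75 on the log2 scale in Ifngr1-KO cells (edgeR adjusted p = 3.45e-14) and by 1.77 in sgNTC cells (adjusted p = 3.52e-24). Btg2, an antiproliferative gene, had 81.7 ± 1.73 CPM in Ifngr1-KO and 163 ± 6.19 CPM in sgNTC cells in ULA with PBS, a log2 difference of -0.99 (edgeR adjusted p = 2.49e-15), and -0.38 on adherent plates (adjusted p = 6.37e-06). Of 13 G1 brakes and D cyclins tested, 9 rose and 3 fell on detachment in Ifngr1-KO cells with PBS, and 8 rose and 3 fell in sgNTC cells. Of all genes tested 29.6% rose and 31.1% fell in Ifngr1-KO cells, and 32.5% rose and 32.1% fell in sgNTC cells.

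Of 15 subunits of the APC/C, which dismantles the products of the mitosis set, 6 rose and 8 fell on detachment in Ifngr1-KO cells with PBS, and 6 rose and 6 fell in sgNTC cells, against the same shares of all genes. Anapc16 fell by 0.84 in Ifngr1-KO cells (edgeR adjusted p = 7.64e-12) and by 0.83 in sgNTC cells (adjusted p = 5.67e-12). With PBS a difference between the lines in the response to detachment was called for 2 of the 15 subunits, 1 in each direction, against 16.6% of all genes called higher and 11.2% called lower in Ifngr1-KO cells, with a median of -0.02.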
